A study of Homo sapiens with 36 samples.

Results

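The genes described here are 40 genes of DNA repair, chosen by symbol from a table of mRNA read counts in Caco-2 and HT-29, 2 established lines from human colorectal cancers. They are 40 of the 60591 genes in that table. By textbook role they were sorted into homologous recombination (12 genes), the Fanconi anaemia pathway (9 genes), mismatch repair (4 genes), nucleotide excision repair (6 genes), base excision repair (5 genes) and damage signalling (4 genes).

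The study placed each line in 3 groups of 3 biological replicates, which gives 18 mRNA libraries in 6 groups. Cells received cobalt chloride (CoCl2) at 300 µM, an oxyquinoline derivative (OD) at 5 µM, or only the solvent dimethyl sulfoxide (DMSO, 0.5 µl per ml) as the control, each for 24 h. Either agent keeps hypoxia-inducible factor from being broken down by blocking prolyl hydroxylases, and so mimics low oxygen. Caco-2 had been kept under differentiating conditions over 21 days, a culture that comes to resemble small-intestinal enterocytes, and no such step is given for HT-29, and in every comparison of the lines the cell line cannot be told apart from its culture state. OD was dissolved in DMSO and the control held the same volume of it. The CoCl2 stock was aqueous, the labels name no DMSO for it, and the study's methods, which describe the Caco-2 cells and not HT-29, do; whether the CoCl2 groups differed from the control in solvent is therefore not settled. Each line is 1 established culture, so the replicates carry no difference between donors.

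DNA repair is divided by the kind of lesion. Homologous recombination copies an intact sister chromatid to mend a double-strand break, and the Fanconi anaemia proteins unhook strands that are covalently tied together. Mismatch repair corrects errors left by replication, nucleotide excision repair cuts out bulky lesions such as those made by ultraviolet light, and base excision repair replaces single damaged bases. The kinases ATM, ATR, CHEK1 and CHEK2 report damage to the cell cycle. Recombination and Fanconi genes are mostly transcribed in cells that are replicating their DNA, as many of them are targets of the E2F factors, whereas base and nucleotide excision repair are needed at all times.

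The libraries held from 12925719 to 22332639 counts. The lowest count of any of the 40 genes in any library was 25, and all 40 passed the filter on low counts in every fit. Together they took from 0.121% to 0.276% of the counts of a library. The hypoxia-responsive glucose transporter SLC2A1 had 168 ± 5.45 CPM (counts scaled to a common library size; SD, n = 3) in the Caco-2 control and 1552 ± 113 with CoCl2, and 470.3 ± 25.5 and 4278 ± 162 in HT-29, so the CoCl2 libraries carried the response their labels imply. With OD it reached 1133 ± 51.1 CPM in Caco-2 and 630.1 ± 73.2 in HT-29. Over the 6 hypoxia-responsive genes examined, SLC2A1 among them, the median change with CoCl2 was 3.27 in Caco-2 and 3.31 in HT-29 on the log2 scale. With OD it was 2.73 in Caco-2 and only 0.58 in HT-29, where single genes ran from -0.06 to 1.67. All 7 epithelial markers examined were detected in both lines, although CDX2, a factor of intestinal identity, had only 12.8 CPM in the HT-29 control and KRT20 only 5.53 in the Caco-2 control. The 7 markers of blood, endothelial and stromal cells summed to between 32.8 and 39.7 CPM in the Caco-2 controls, most of it COL1A1, and to between 3.68 and 5.16 in the HT-29 controls, with PTPRC at or near 0. The TMM scaling factors (trimmed mean of M values) differed between treatments, from 0.765 to 0.774 in the HT-29 libraries with CoCl2 and from 1.19 to 1.20 in the HT-29 controls. When libraries were scaled by their size only, without TMM, the median change over all genes shifted on the log2 scale by -0.32 (CoCl2) and -0.15 (OD) in Caco-2 and by -0.63 and -0.14 in HT-29. Changes below are relative to that median, as TMM sets it. These are bulk libraries, so fewer cells that express a gene and less of its RNA per cell cannot be told apart.

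Promoters are shown for the 4 genes that differed most from control and, for contrast, for DDB1, the gene whose largest difference from control was the smallest of the 40. All sequences are from RefSeq on GRCh38.p14, 5′ to 3′ on the gene's strand, and run from 250 bases upstream of the transcription start up to the first annotated exon. Capitals mark ACGTG or GCGTG, the core of the hypoxia response element in its usual forms. OGG1 (base excision repair) is at chr3:9749702-9749943 on the plus strand, FANCF (Fanconi) at chr11:22625824-22626073 on the minus strand, BRCA1 (recombination) at chr17:43125484-43125614 on the minus strand, PMS2 (mismatch repair) at chr7:6009131-6009299 on the minus strand and DDB1 (nucleotide excision repair) at chr11:61333225-61333355 on the minus strand.
OGG1: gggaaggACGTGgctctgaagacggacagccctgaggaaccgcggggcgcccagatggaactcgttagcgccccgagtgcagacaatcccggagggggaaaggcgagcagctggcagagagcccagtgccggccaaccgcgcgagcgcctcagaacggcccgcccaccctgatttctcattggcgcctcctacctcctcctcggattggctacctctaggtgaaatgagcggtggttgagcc
FANCF: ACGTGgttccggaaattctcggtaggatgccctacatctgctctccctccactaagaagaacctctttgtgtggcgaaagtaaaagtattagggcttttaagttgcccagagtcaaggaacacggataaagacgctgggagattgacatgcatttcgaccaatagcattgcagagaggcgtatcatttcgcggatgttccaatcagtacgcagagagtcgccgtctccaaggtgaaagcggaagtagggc
BRCA1: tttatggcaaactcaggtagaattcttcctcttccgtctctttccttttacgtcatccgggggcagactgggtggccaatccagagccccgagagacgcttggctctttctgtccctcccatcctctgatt
PMS2: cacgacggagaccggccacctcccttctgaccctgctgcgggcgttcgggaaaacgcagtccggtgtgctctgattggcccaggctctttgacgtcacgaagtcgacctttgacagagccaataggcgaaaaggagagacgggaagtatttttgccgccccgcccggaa
DDB1: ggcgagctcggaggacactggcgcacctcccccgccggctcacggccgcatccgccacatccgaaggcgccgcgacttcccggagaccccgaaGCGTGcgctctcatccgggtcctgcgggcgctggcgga

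The genes were picked on these changes, so the letters are only a description of them. OGG1 and FANCF hold ACGTG, BRCA1 and PMS2 hold neither core in the stretch shown, and DDB1 holds GCGTG. In the 250 bases before the start, searched on both strands, ACGTG stood in 13 of the 39 genes with an entry (33.3%). The share was 27.8% of the 11715 genes tested that had an entry, and 21.7% of all 27305 genes with an entry. GCGTG stood in 24 of 39 (61.5%), against 50.7% and 36.2%. The E2F site, searched as TTTCCCGC, TTTGGCGC or TTTCGCGC, stood in 3 of 39 (7.69%), against 4.51% of the genes tested. None of the 12 recombination genes held it. A match is a string of letters in a window and not a bound site.

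In untreated cells the repair genes were transcribed at middling levels, with the highest class median in base excision repair. Levels between genes are compared per length, as the deposited log2(RPKM + 1). The median of the 40 genes was 2.31 in Caco-2 and 2.71 in HT-29, beside 2.65 and 2.74 for all genes listed in each line. APEX1, the endonuclease that cuts at a lost base, was highest in both lines, at 6.80 ± 0.00566 (SD, n = 3) in Caco-2 and 5.95 ± 0.0125 in HT-29. It stood above the next gene by 1.80 and 0.78, more than the spread of either gene. By class, the medians were 4.57 and 4.46 for base excision repair, 3.26 and 2.90 for nucleotide excision repair, 2.33 and 2.50 for mismatch repair, 2.30 and 2.20 for the Fanconi pathway, 2.77 and 2.76 for signalling and 1.80 and 2.49 for recombination, given for Caco-2 first. The 5 base excision genes ranged widely, from 2.24 to 6.80 in Caco-2 and from 1.46 to 5.95 in HT-29. OGG1 was the lowest of them in both lines, at rank 22 of the 40 in Caco-2 and 38 in HT-29. Of all 40, FANCB was lowest in Caco-2 at 0.84 ± 0.26 and FANCM lowest in HT-29 at 0.80 ± 0.0405. Of the 39 neighbouring pairs in the order, 14 in Caco-2 and 21 in HT-29 lay further apart than the SD of either gene, so most neighbours in Caco-2 did not differ beyond their spread. UNG and PARP1, neighbours in the Caco-2 order, were among those that did not.

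**Figure D1:**
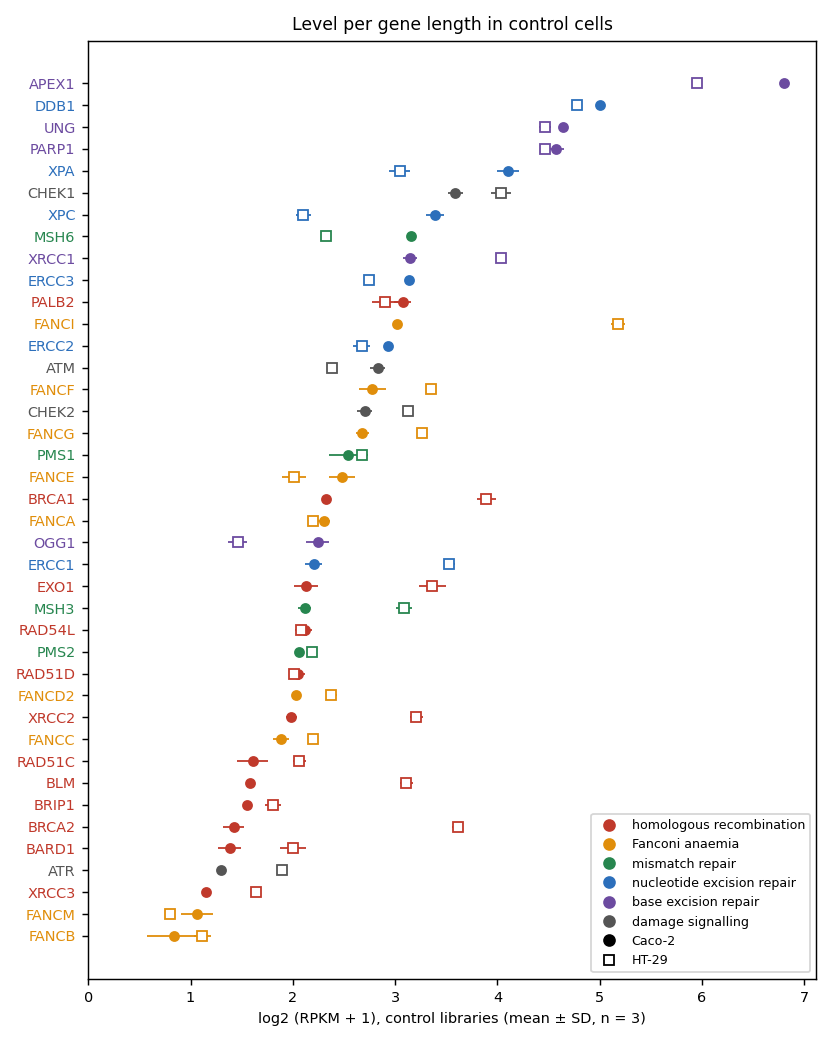
Level of each of the 40 genes in the control libraries of Caco-2 and HT-29 as log2(RPKM + 1), ordered by the level in Caco-2. Filled circles (Caco-2) and open squares (HT-29) are means with SD bars (n = 3), coloured by class. APEX1 is highest in both lines (6.80 and 5.95), and the recombination genes lie lower in Caco-2 (median 1.80) than in HT-29 (2.49).

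Between the control groups, 9 of the 40 genes were called higher in HT-29 and 3 lower, at a false discovery rate (FDR, by Benjamini-Hochberg over all genes tested) under 0.05 and an absolute log2 fold change over 1 in edgeR's quasi-likelihood test. That definition of a call holds throughout, and values after ± beside a log2 change are standard errors. That is 30% of the 40, beside 45.8% of all genes tested (21.6% higher and 24.2% lower), so the repair genes were not called more often than others. Recombination leaned one way: 5 of the 12 genes were called higher in HT-29 and none lower, with a median log2 difference of 0.93. BRCA2, a mediator of strand exchange in recombination, had 20.3, 19.1 and 24.0 CPM in the Caco-2 controls and 143, 142 and 133 in the HT-29 controls. Its log2 difference of 2.81 ± 0.10 (SE; FDR 2.58e-23) was the greatest of the 40. FANCI, a partner in the clamp that is switched on at crosslinks, stood at 53.6 to 54.4 CPM in Caco-2 and 253 to 278 in HT-29. The log2 differences of FANCI, BLM and BRCA1 were 2.39, 2.01 and 1.87. The 3 genes called lower in HT-29 were excision repair genes: XPC, which finds distorted DNA, at -1.46 ± 0.09 (FDR 4.85e-17), XPA at -1.08 ± 0.10 (FDR 8.97e-12) and OGG1 at -1.01 ± 0.11 (FDR 1.68e-10). Excision repair also held genes called higher there, 1 for nucleotides (ERCC1, 1.62) and 1 for bases (XRCC1). The call of OGG1 was lost without Caco-2 control replicate 2 (-0.92) or HT-29 control replicate 1 (-0.94) and with no filter on low counts (-0.99). That of XRCC1 (1.04 higher in HT-29) was lost without Caco-2 control replicate 1, at 1.00, and with DESeq2 or with its kind of size factors in edgeR (RLE scaling), at 0.97. Beside this, MKI67, a protein of dividing cells, had 235 ± 12.1 CPM in the Caco-2 control and 703 ± 40.4 in the HT-29 control. The part of cell division in the differences was not tested.

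With CoCl2 against control, more of the 40 genes passed as lower than as higher in both lines. In HT-29, 17 of 40 were called lower and 0 higher (42.5%, beside 41.3% of all 15812 genes tested). The share called was therefore that of the genes at large, while the direction was not balanced, as 23.9% of all genes were called lower and 17.4% higher. At an FDR under 0.05 alone, 29 were lower and 4 higher (82.5%, beside 82.8% of all genes, of which 42.2% lower and 40.7% higher), and the split was 38 and 0 with library size only. The median log2 fold change of the 40 was -0.85, beside -0.03 for all genes. With library size only 28 were called, all lower, and the median was -1.48. With limma on the deposited log2 values 13 were called, as BARD1 (-0.79), ERCC2 (-0.94), FANCE (-0.78) and RAD51D (-0.84) lost their calls. Those values are log2(RPKM + 1), where the added 1 shrinks the changes of genes at low levels. The limit of 1 is therefore harder to reach on that scale, here and below. In Caco-2, 1 of 40 was called lower and 0 higher (2.5%, beside 23.4% of 16034 genes, of which 14.2% lower and 9.13% higher). At an FDR under 0.05 alone 15 were lower and 7 higher (55%, beside 64.7%, of which 33.1% lower and 31.6% higher), or 25 and 1 with library size only, and the median was -0.09. With library size only 5 were called, all lower, and the median was -0.41.

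With OD, more of the 40 genes passed as higher than as lower in Caco-2, and more as lower than as higher in HT-29. In Caco-2, 3 were called higher and 1 lower (10%, beside 11.7% of all genes tested, of which 4.43% higher and 7.27% lower). At an FDR under 0.05 alone 21 were higher and 7 lower (70%, beside 50.4%, of which 25.7% higher and 24.7% lower), with a median of 0.31. Library size in place of TMM left 16 higher and 11 lower, with 1 call higher and 2 lower and a median of 0.16. In HT-29, 1 was called higher and 2 lower (7.5%, beside 17.1%, of which 9.5% higher and 7.57% lower). By FDR alone 7 were higher and 25 lower (80%, beside 68.8%, of which 34.7% higher and 34% lower), or 4 and 30 with library size only. The median there was -0.24.

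**Figure D2:**
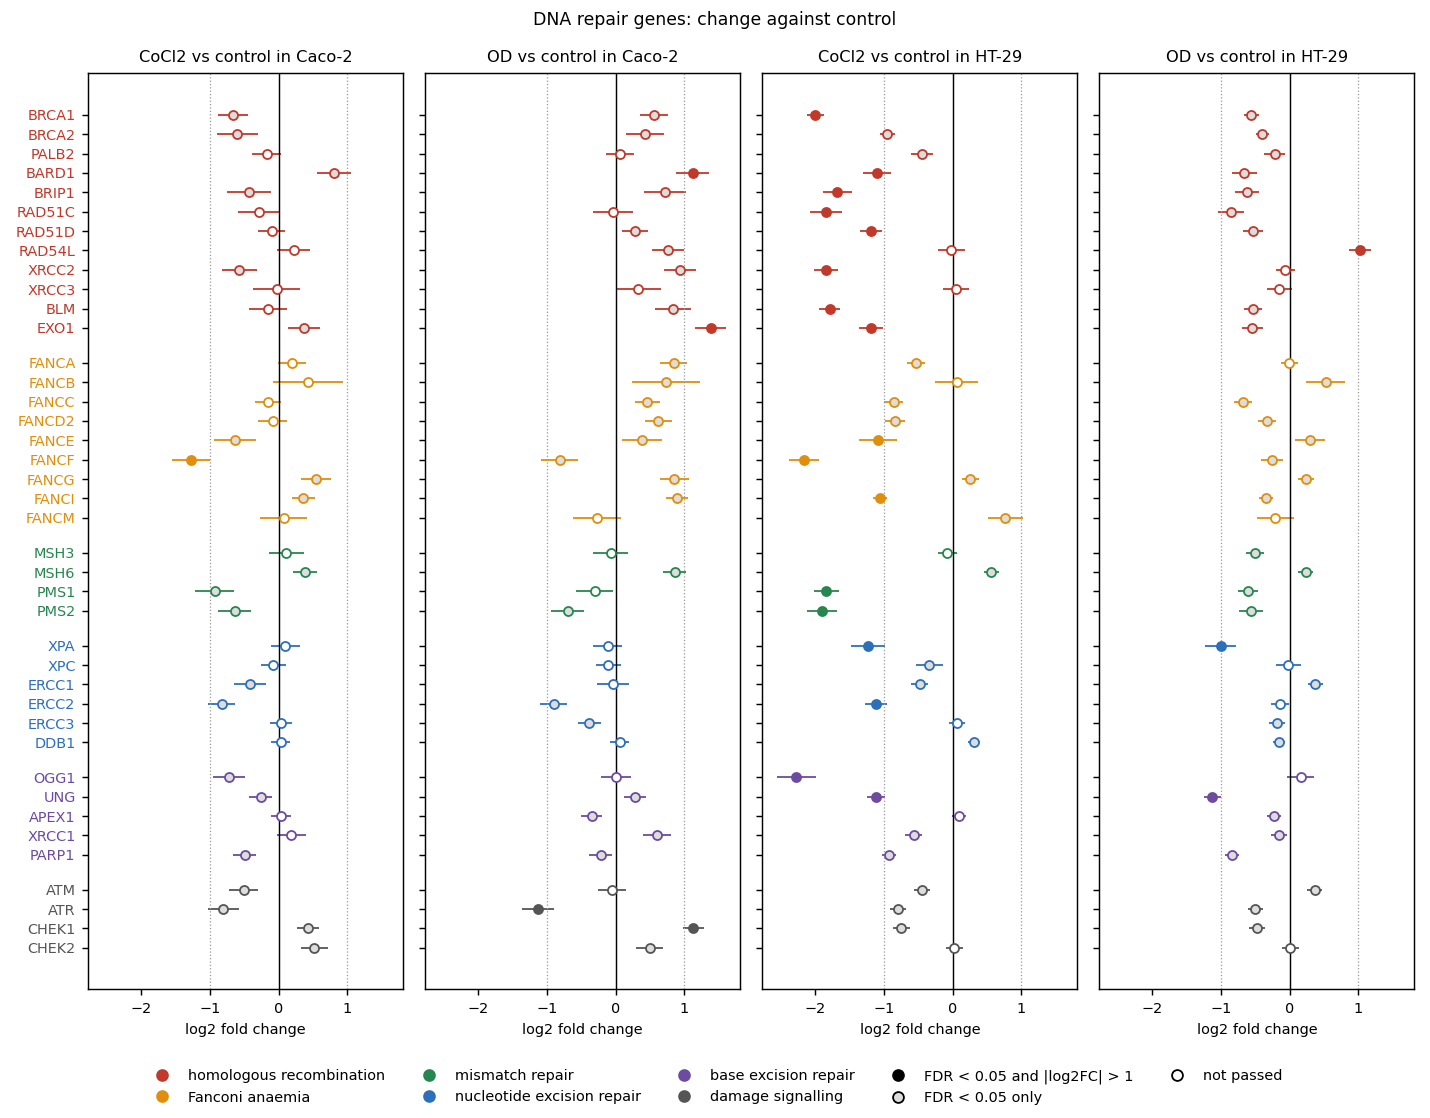
Log2 fold change against control of each of the 40 genes for CoCl2 and OD in Caco-2 and HT-29 (edgeR, TMM scaling), coloured by class. Filled points are called, grey points have an FDR under 0.05 only, open points do not pass, and bars are 95% intervals. In HT-29 with CoCl2 most genes lie below 0 (median -0.85), and with OD in Caco-2 most recombination genes lie above 0 (median 0.64).

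Homologous recombination is described first. With CoCl2 in HT-29, 8 of the 12 genes were called lower and none higher (66.7% lower, beside 23.9% of all genes), with a median log2 fold change of -1.19, and in Caco-2 none was called, with a median of -0.16. With OD in Caco-2, 9 of 12 had an FDR under 0.05 and all 9 were higher (75%, beside 25.7% of all genes, with a median of 0.64), and 2 of them were called (16.7%, beside 4.43%). With OD in HT-29, 9 had such an FDR and were lower (75%, beside 34% of all genes), and 1 was higher and called (median -0.54).

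BRCA1, the scaffold that directs breaks to recombination, lies at chr17:43044295-43170245 (GRCh38, minus strand) and overlaps NBR2 on the other strand. Its level was 116, 126 and 133 CPM in the HT-29 controls, 30.3, 30.7 and 32.8 with CoCl2, and 85.7, 84.8 and 84.7 with OD. No CoCl2 library came near the others, and those with OD lay between. The log2 fold change was -2.0 ± 0.06 (SE; edgeR FDR 2.58e-21) for CoCl2 and -0.56 ± 0.05 (FDR 3.08e-10) for OD. In Caco-2 it had 36.3, 35.3 and 37.6 CPM in the control, 19.5, 25.2 and 23.9 with CoCl2 and 47.6, 58.6 and 54.7 with OD, so the agents moved it apart, by -0.67 ± 0.10 (FDR 5.42e-06) and 0.56 ± 0.10 (FDR 4.75e-05). BARD1, the partner of BRCA1 in its ubiquitin ligase, rose with OD in Caco-2 from 10.5 to 13.6 CPM in the controls to 24.9, 25.3 and 27.9. That is 1.12 ± 0.12 (FDR 2.4e-08), which was not a call with library size only (0.97) or with limma on the deposited log2 values (0.76). In HT-29 it had 19.6, 24.6 and 22.4 CPM in the control and 11.4, 10.6 and 8.97 with CoCl2 (-1.11 ± 0.10, FDR 8.82e-11). The pair therefore moved apart in Caco-2 with CoCl2, where BARD1 rose by 0.81 ± 0.12 (FDR 2.15e-06), and fell together in HT-29.

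XRCC2, RAD51C, RAD51D and XRCC3, related proteins that assist strand exchange, differed among themselves. XRCC2 had 39.2, 40.2 and 36.6 CPM in the HT-29 controls, 9.93, 9.89 and 12.5 with CoCl2 and 38.1, 33.8 and 38.7 with OD. CoCl2 lowered it by 1.85 ± 0.09 on the log2 scale (FDR 8.38e-17), whereas the OD libraries overlapped the controls (-0.06, 95% interval -0.20 to 0.08, FDR 0.419). In Caco-2 its levels were 14.8, 13.4 and 13.8 CPM in the control, 8.50, 9.16 and 10.4 with CoCl2 and 26.2, 29.0 and 25.5 with OD. The 3 groups did not overlap there, with CoCl2 lowest and OD highest. RAD51C fell in HT-29 from 17.6, 19.1 and 19.5 CPM to 5.53, 4.29 and 6.01 with CoCl2 (-1.84 ± 0.11, FDR 2.4e-14) and to 10.5, 9.72 and 10.9 with OD (-0.86 ± 0.09, FDR 6.34e-09). In Caco-2 neither agent took RAD51C past the threshold (-0.29 and -0.04, with FDR 0.0788 and 0.835). RAD51D fell with CoCl2 in HT-29 by 1.19 ± 0.08 (FDR 1.77e-13). XRCC3 passed the threshold with neither agent in either line, and its log2 fold changes ran from -0.15 to 0.33.

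The helicases and nuclease of recombination behaved much as BRCA1 did in HT-29. BLM, the helicase that dissolves crossed strands, had 46.7, 50.4 and 50.9 CPM in the HT-29 controls, 14.8, 13 and 15.2 with CoCl2 and 36.4, 31.7 and 34.1 with OD. All 3 groups were separate, at -1.79 ± 0.08 (FDR 7.45e-18) and -0.54 ± 0.06 (FDR 2.92e-08). BRIP1, a helicase bound to BRCA1, fell with CoCl2 by 1.68 ± 0.10 (FDR 3.21e-14). EXO1, which resects DNA ends and also serves mismatch repair, had the greatest rise of the 40 with OD in Caco-2: 12.3, 13.8 and 15.2 CPM in the control, 18.7, 17.4 and 17.1 with CoCl2, and 38.3, 34.9 and 34.4 with OD. The log2 fold changes were 0.37 ± 0.11 (FDR 0.00663) and 1.39 ± 0.11 (FDR 1.82e-10). In HT-29 EXO1 went the other way, from 33.8, 36.9 and 41.3 CPM to 17.2, 14.9 and 17.8 with CoCl2 and 27.6, 25.1 and 24.5 with OD.

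RAD54L, a motor protein that remodels DNA for strand exchange, was the only recombination gene higher with OD in HT-29 at an FDR under 0.05. In HT-29 it had 12.1, 12.8 and 13.4 CPM in the control, 12.5, 12.2 and 13.4 with CoCl2 and 26.0, 23.9 and 28.4 with OD. The CoCl2 libraries overlapped the controls (-0.02, 95% interval -0.21 to 0.17) and the OD libraries were all above them (1.02 ± 0.08, FDR 1.28e-11). The value lies close to the limit of a call, which was lost without HT-29 control replicate 1 (0.99), without HT-29 OD replicate 3 (0.96), with library size only (0.89) and with limma on the deposited log2 values (0.82). RAD54L rose with OD in Caco-2 too, by 0.76 ± 0.11 (FDR 4.19e-06). It overlaps LRRC41 on the other strand. PALB2, the link between BRCA1 and BRCA2, was called in no comparison, and in Caco-2 it had an FDR over 0.05 with both agents (0.137 and 0.644).

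The Fanconi genes did not move as 1 group. With CoCl2 in HT-29, 6 of the 9 were lower and 2 higher at an FDR under 0.05 (66.7% and 22.2%, beside 42.2% and 40.7% of all genes), and with OD in Caco-2 7 were higher and 1 lower (77.8% and 11.1%, beside 25.7% and 24.7%). FANCF, an adaptor inside the core ubiquitin ligase, was the 1 gene of the 40 called with CoCl2 in Caco-2, with 21.1, 17.0 and 18.6 CPM in the control and 8.58, 8.21 and 6.87 with CoCl2 (-1.28 ± 0.14, FDR 1.25e-08). OD gave 9.82, 11.5 and 11 CPM, also below every control (-0.81 ± 0.13, FDR 1.22e-05). In HT-29 the values were 30.5, 28.4 and 29.1 CPM in the control, 7.17, 6.85 and 5.43 with CoCl2 and 21.6, 27.6 and 24.5 with OD. FANCF thus fell with both agents in both lines, most with CoCl2 in HT-29 (-2.17 ± 0.11, FDR 1.7e-16). FANCF lies at chr11:22622533-22625823 on the minus strand and overlaps GAS2 on the other strand.

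FANCG, another subunit of the core complex, rose with both agents in Caco-2, from 18.2, 19.9 and 18.3 CPM to 31.2, 26.4 and 24.9 with CoCl2 (0.54 ± 0.10, FDR 8.2e-05) and to 34, 33.0 and 34.9 with OD (0.85 ± 0.10, FDR 2.6e-07). In HT-29 its changes were small, at 0.26 ± 0.06 (FDR 0.000426) for CoCl2, which turned to -0.37 with library size only, and 0.24 ± 0.06 (FDR 0.00099) for OD. FANCE, the subunit that binds FANCD2, fell with CoCl2 in HT-29 from 7.23, 8.91 and 7.81 CPM to 4.03, 3.53 and 3.79 (-1.08 ± 0.13, FDR 4e-08). With OD it was 9.37, 10.1 and 9.90 CPM there, above every control (0.29 ± 0.11, FDR 0.0163). FANCI had 253, 265 and 278 CPM in the HT-29 controls, 127, 122 and 134 with CoCl2 and 204, 214 and 207 with OD (-1.06 ± 0.05 with FDR 1.01e-16, and -0.35 ± 0.05 with FDR 4.61e-07). In Caco-2 it rose from 54.0, 53.6 and 54.4 CPM to 64.7, 75.1 and 68.2 with CoCl2 and to 102, 102 and 95.5 with OD. Its partner FANCD2 moved in the same directions as FANCI with OD in both lines (0.62 ± 0.10 with FDR 9.03e-06 in Caco-2 and -0.33 ± 0.06 with FDR 7.15e-05 in HT-29). FANCM, the translocase that brings the complex to the lesion, was the gene with the highest value for CoCl2 in HT-29, going from 5.87, 6.51 and 5.78 CPM to 8.74, 11.5 and 10.5 (0.77 ± 0.12, FDR 2.4e-06, and 0.14 with library size only). As a class the 9 genes had medians of 0.07 (CoCl2) and 0.62 (OD) in Caco-2, with -0.84 and -0.21 for HT-29, of which the first turned to -0.25 with library size only.

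**Figure D3:**
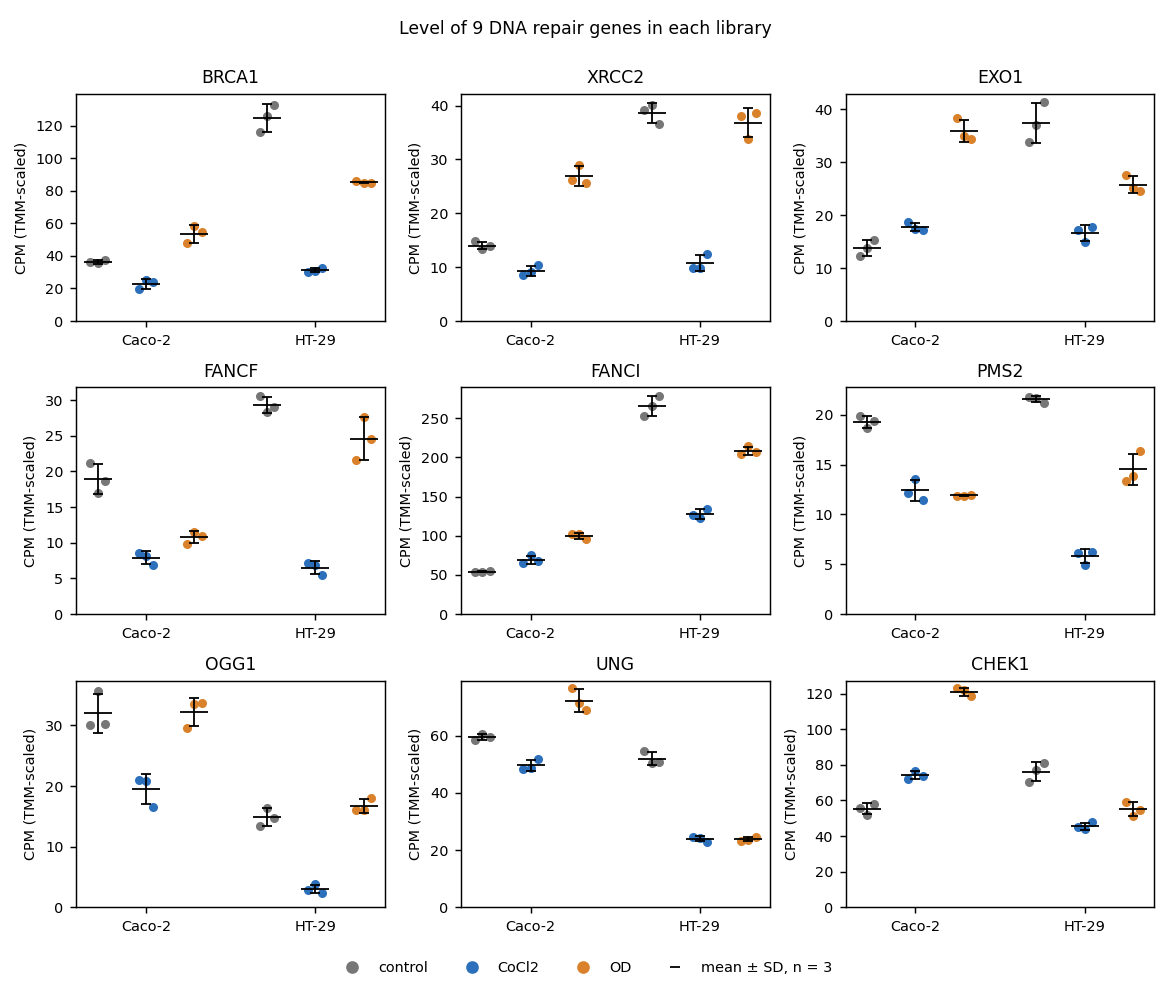
CPM (TMM-scaled, linear axis from 0) in each of the 18 libraries for 9 of the genes described, with 1 point per library, a bar at the group mean and whiskers of 1 SD (n = 3). EXO1 and CHEK1 are higher with OD in Caco-2 and lower in HT-29, and OGG1 and FANCF are lower with CoCl2 in both lines.

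Mismatch repair divided by complex. With CoCl2 the PMS genes, of the family whose products act after a mismatch is found, fell in both lines, and the MSH genes, whose products find the mismatch, did not. The median of the 4 genes was -0.26 (CoCl2) and -0.19 (OD) in Caco-2, with -0.96 and -0.53 for HT-29. PMS1 had 28.3, 29.8 and 27.8 CPM in the HT-29 controls, 8.44, 8.44 and 7.0 with CoCl2 and 18.8, 18.4 and 19.2 with OD. The 3 groups did not overlap, at -1.84 ± 0.09 (FDR 1.02e-16) and -0.60 ± 0.07 (FDR 3.19e-08). In Caco-2 PMS1 had 29.2, 21.4 and 27.4 CPM in the control and 11.9, 17.1 and 12.1 with CoCl2. That log2 fold change of -0.93 ± 0.14 (FDR 2.26e-06) passed -1 without Caco-2 control replicate 2 (-1.05) or without Caco-2 CoCl2 replicate 2 (-1.11), which takes the Caco-2 count of calls from 1 to 2. PMS2 fell from 21.8, 21.7 and 21.2 CPM to 6.12, 4.98 and 6.26 with CoCl2 in HT-29 (-1.90 ± 0.11, FDR 4.2e-15). It also fell with CoCl2 (-0.64 ± 0.12, FDR 3.52e-05) and OD (-0.70 ± 0.12, FDR 2.16e-05) in Caco-2. The counts of PMS2 are uncertain, because the table also lists 11 genes of its pseudogene family with 5943 counts over all libraries beside 4322 for PMS2, and reads may have been split among them.

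MSH6, which detects single mismatched bases, rose with OD in Caco-2 from 86.5, 83.0 and 85.1 CPM to 175, 147 and 140.3 (0.86 ± 0.08, FDR 4.67e-09), and rose with CoCl2 by 0.38 ± 0.08 (FDR 0.000244). In HT-29 it had 42.7, 42.5 and 43.0 CPM in the control, 63.1, 61.3 and 64.7 with CoCl2 (0.56 ± 0.05, FDR 2.59e-10) and 52.4, 48.5 and 50.1 with OD (0.24 ± 0.05, FDR 0.000298). The value for CoCl2 in HT-29 turned to -0.07 with library size only. MSH3, which detects small loops, passed against control only with OD in HT-29, at 28.6, 25.6 and 27.5 CPM against 40.5, 39.7 and 36.1 in the control (-0.50 ± 0.06, FDR 1.41e-07).

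Nucleotide excision repair had class medians of -0.02 (CoCl2) and -0.11 (OD) in Caco-2, with -0.41 and -0.14 for HT-29, and its genes went separate ways. XPA, which checks that a lesion is real, had 11.9, 13.9 and 12.6 CPM in the HT-29 controls, 5.68, 4.56 and 6.26 with CoCl2 and 6.57, 6.46 and 6.07 with OD. Both treated groups lay below every control and overlapped each other, at -1.23 ± 0.12 (FDR 4.66e-10) and -1.01 ± 0.11 (FDR 6.64e-09). The second call was lost without HT-29 control replicate 2 (-0.95) or HT-29 OD replicate 3 (-0.97) and with limma on the deposited log2 values (-0.86). In Caco-2 XPA passed the threshold with neither agent (0.10 and -0.12, FDR 0.422 and 0.363), with all groups between 24.5 and 33.9 CPM. ERCC2, a helicase of the TFIIH complex that opens DNA for repair and for transcription, fell with both agents in Caco-2: 41.9, 42.5 and 41.7 CPM in the control, 25.6, 22.5 and 22.9 with CoCl2 and 20.0, 23.6 and 23.8 with OD (-0.83 ± 0.10 with FDR 7.02e-08, and -0.90 ± 0.10 with FDR 4.44e-08). In HT-29 CoCl2 lowered it by 1.12 ± 0.08 (FDR 3.08e-13) and OD left it at -0.14 (95% interval -0.27 to -0.0028, FDR 0.065). ERCC3, the other TFIIH helicase, did not follow. With CoCl2 it stood at 0.03 ± 0.08 in Caco-2 and 0.06 ± 0.06 in HT-29 (FDR 0.73 and 0.307), and with library size only these became -0.29 and -0.57.

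ERCC1, part of a nuclease that cuts beside the lesion, fell with CoCl2 in HT-29 (57.1 ± 2.39 to 40.9 ± 2.57 CPM) and rose with OD (73.9 ± 2.68), at -0.48 ± 0.06 (FDR 2.88e-08) and 0.37 ± 0.05 (FDR 7.8e-07). DDB1, the adaptor of a ubiquitin ligase that binds ultraviolet damage and has many other tasks, differed least from control in Caco-2. It had 408, 421 and 424 CPM in the Caco-2 controls, 437, 415 and 428 with CoCl2 and 448, 422 and 436 with OD. Those groups overlapped, with 95% intervals of -0.11 to 0.17 and -0.08 to 0.20 on the log2 scale. In HT-29 it had 359, 349 and 353 CPM in the control, 451, 428 and 438 with CoCl2 and 321, 319 and 317 with OD, at 0.31 ± 0.04 (FDR 2.07e-07), which was -0.32 with library size only, and -0.15 ± 0.04 (FDR 0.00316). XPC passed against control only with CoCl2 in HT-29 (-0.34 ± 0.10, FDR 0.00187).

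Base excision repair held the largest fall of the 40 genes against control. The medians of its 5 genes were -0.26 (CoCl2) and 0.01 (OD) in Caco-2, with -0.93 and -0.23 for HT-29, of which the second turned to -0.14 with library size only and -0.02 on the deposited log2 values. OGG1, the glycosylase that removes oxidised guanine, had 13.5, 16.5 and 14.8 CPM in the HT-29 controls, 2.91, 3.80 and 2.39 with CoCl2 and 16, 16.1 and 18 with OD. CoCl2 therefore left it at -2.28 ± 0.14 (FDR 2.02e-14), while OD overlapped the control (0.16, 95% interval -0.03 to 0.36, FDR 0.133). In Caco-2 the same order held, with 30.1, 35.8 and 30.3 CPM in the control, 21.1, 20.8 and 16.6 with CoCl2 and 29.5, 33.5 and 33.7 with OD (-0.73 ± 0.11 with FDR 4.43e-06, and 0.01 with an interval of -0.21 to 0.23). OGG1 lies at chr3:9749944-9788219 on the plus strand and overlaps CAMK1 and TADA3 on the other strand. Where counts ignore strand, reads of those genes could enter it, and the use of strand is not given in the sources used here.

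UNG, the glycosylase that removes uracil, fell with both agents in HT-29. It had 54.7, 50.6 and 50.7 CPM in the control, 24.7, 24.1 and 23.0 with CoCl2 and 23.3, 23.7 and 24.5 with OD, which is -1.12 ± 0.06 for each (FDR 3.98e-15 and 4.29e-15). The difference between the agents was 0.01 with an interval of -0.13 to 0.15, and -0.49 with library size only. In Caco-2 UNG moved apart, to -0.26 ± 0.08 (FDR 0.00596) with CoCl2 and 0.28 ± 0.08 (FDR 0.00443) with OD. UNG overlaps ACACB on the same strand, and how reads in a shared stretch were counted is not given. PARP1, which senses strand breaks, fell in HT-29 from 142, 152 and 146 CPM to 75.7, 77.9 and 77.6 with CoCl2 and to 82.6, 82.1 and 80.9 with OD (-0.93 ± 0.05 with FDR 8.75e-16, and -0.84 ± 0.05 with FDR 1.4e-14). XRCC1, the scaffold of the pathway, rose with OD in Caco-2 (0.60 ± 0.10, FDR 2.02e-05) and fell with CoCl2 in HT-29 (-0.57 ± 0.06, FDR 3.25e-09). APEX1, the most abundant of the 40, was at 0.03 ± 0.07 (FDR 0.697) and 0.09 ± 0.05 (FDR 0.107) with CoCl2, or -0.29 and -0.54 with library size only, and fell slightly with OD (-0.35 ± 0.07 with FDR 0.000376 in Caco-2, and -0.23 ± 0.05 with FDR 0.000296 in HT-29).

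Of the signalling kinases, ATR and CHEK1, which act in the same pathway at stalled forks, moved in opposite directions with OD in Caco-2. ATR had 39, 37.5 and 40.6 CPM in the control, 19.7, 24.6 and 22.8 with CoCl2 and 14.5, 19.5 and 19.4 with OD. It was the only gene of the 40 called lower with OD in Caco-2 (-1.13 ± 0.11, FDR 1.43e-08). The deposited log2(RPKM + 1) values gave -0.58, on a scale where the added 1 shrinks the changes of genes at low levels. ATR stood at 1.30 on that scale in the Caco-2 control. CHEK1, its target kinase, had 56.0, 51.8 and 57.8 CPM in the control, 72.0, 76.7 and 73.8 with CoCl2 and 123, 122 and 119 with OD. The 3 groups were well apart, at 0.43 ± 0.08 (FDR 3.39e-05) and 1.13 ± 0.08 (FDR 1.12e-11), or 0.98 for OD with library size only. In HT-29 both kinases fell with both agents, ATR by 0.80 and 0.50 and CHEK1 by 0.75 and 0.47 on the log2 scale. CHEK1 overlaps STT3A on the same strand, and how reads in a shared stretch were counted is not given. ATM, the kinase of double-strand breaks, fell with CoCl2 in both lines (-0.51 ± 0.10 with FDR 0.000102 in Caco-2, and -0.45 ± 0.05 with FDR 3.26e-08 in HT-29) and rose with OD in HT-29 (98 ± 3.3 to 126 ± 5.55 CPM, 0.36 ± 0.05, FDR 7.8e-07). CHEK2, which ATM activates, rose in Caco-2 with CoCl2 (0.52 ± 0.09, FDR 3.52e-05) and OD (0.50 ± 0.09, FDR 0.000106) and passed the threshold with neither in HT-29 (FDR 0.694 and 0.873).

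The agents were then set against each other within each line, at the single dose each was given. In Caco-2, 6 of the 40 genes were called lower with CoCl2 than with OD and 0 higher (15%, beside 11.7% of all genes, of which 6.44% lower and 5.21% higher), with a median log2 difference of -0.40. The 6 were BRCA1, BRCA2, BRIP1, XRCC2, EXO1 and FANCE, of which 5 belong to recombination. XRCC2 differed most, by -1.52 ± 0.12 (FDR 2.17e-10), and BRCA1 by -1.23 ± 0.10 (FDR 7e-10). The other 4 lay between -1.15 and -1.02, and each lost its call without 1 library: BRCA2 without Caco-2 CoCl2 replicate 1 (-0.92) or OD replicate 3 (-0.85), BRIP1 without CoCl2 replicate 1 (-0.98), EXO1 without CoCl2 replicate 3 (-0.99) or OD replicate 1 (-0.96), and FANCE without CoCl2 replicate 2 (-0.89) or OD replicate 1 (-0.91). With limma on the deposited log2 values those 4 and BRCA1 (-0.97) lost their calls, which left XRCC2. In HT-29, 10 were called lower with CoCl2 and 0 higher (25%, beside 29.9%, of which 19.2% lower and 10.8% higher), with a median of -0.49. OGG1 (-2.44 ± 0.14, FDR 6.45e-15), FANCF (-1.91 ± 0.11, FDR 8.58e-15) and XRCC2 (-1.78 ± 0.09, FDR 4.17e-16) led. The others were BRCA1, BRIP1, RAD54L, BLM, FANCE, PMS1 and PMS2. By FDR alone 28 were lower with CoCl2 and 6 higher (85%, beside 77.7%, of which 40.6% lower and 37.1% higher), or 37 and 1 with library size only. BRIP1 lost its call without HT-29 CoCl2 replicate 1 (-0.97) and RAD54L without HT-29 OD replicate 3 (-0.98). With limma on the deposited log2 values BRIP1 (-0.58), RAD54L (-0.90), FANCE (-0.99), PMS1 (-0.90) and PMS2 (-0.82) lost theirs, which left 5, and with library size only 20 were called. CoCl2 and OD are unlike in dose and chemistry, so these differences are between the treatments as given.

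The lines responded differently, and the difference was tested as an interaction over all 18 libraries. For CoCl2, 14 of the 40 genes had a response that was lower in HT-29 than in Caco-2 by more than 1 on the log2 scale and 0 had a higher one (35%, beside 21.6% of all genes tested, of which 13.8% lower and 7.79% higher). With library size only 20 were lower and 0 higher, and the median of all genes moved by -0.20. With DESeq2 and with RLE scaling 13 were lower and 0 higher, and that median moved the other way, by 0.13 and 0.10. For OD the numbers were 10 and 0 (25%, beside 15.2% of all genes, of which 6.24% lower and 8.96% higher), or 9 and 0 with library size only. By FDR alone, 29 were lower and 1 higher for CoCl2 (75%, beside 49.8%, of which 28.6% lower and 21.1% higher) and 24 lower and 5 higher for OD (72.5%, beside 42.9%, of which 22% lower and 20.9% higher). The medians of these differences were -0.70 and -0.57, beside -0.13 and 0.01 for all genes. For CoCl2, DESeq2 gave 22 lower and 2 higher by FDR alone and RLE scaling 24 and 2, each with a median of -0.60. Both interactions use the same control libraries, so their results are not independent. For the 6 hypoxia-responsive genes the median line differences were -0.32 for CoCl2 and -2.03 for OD. The part of that weaker OD response in HT-29 in the differences of the repair genes was not tested. By class the medians for CoCl2 and OD were -1.37 and -0.93 in recombination, -0.81 and -0.63 in the Fanconi pathway, -0.66 and -0.38 in mismatch repair, -0.86 and -0.65 in base excision repair, -0.35 and -0.05 in signalling and -0.27 and 0.13 in nucleotide excision repair. Recombination thus had the lowest median in both, and nucleotide excision repair the highest.

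BARD1 had the greatest difference for CoCl2, at 0.81 in Caco-2 and -1.11 in HT-29, with an interaction of -2.03 ± 0.16 (FDR 8.79e-13). EXO1 had the greatest for OD, at 1.39 and -0.55, with an interaction of -1.95 ± 0.13 (FDR 7.9e-14). Called for both agents were BRCA1, BARD1, BRIP1, XRCC2, BLM, EXO1, FANCI and CHEK1. RAD51C, RAD51D, PMS1, PMS2, XPA and OGG1 were called for CoCl2 alone, and FANCC and UNG for OD alone, although whether the agents differ in that respect was not tested. The call of PMS1 was lost with DESeq2 (-0.92), with RLE scaling (-0.91) and without Caco-2 control replicate 2, Caco-2 CoCl2 replicate 2, HT-29 control replicate 2 or HT-29 CoCl2 replicate 3 (-0.99 to -0.83). That of XRCC2 for OD was lost with library size only (-0.99) and without replicate 2 of the control or of OD in either line (-1.0 to -0.96). FANCM was the 1 gene with a higher CoCl2 response in HT-29 at an FDR under 0.05 (0.58 ± 0.21, FDR 0.0221). It no longer passed with library size only (FDR 0.147) or without Caco-2 control replicate 3, Caco-2 CoCl2 replicate 1, HT-29 control replicate 3, HT-29 CoCl2 replicate 2 or HT-29 CoCl2 replicate 3 (FDR 0.0515 to 0.103). ERCC2 had the highest OD difference (0.74 ± 0.11, FDR 2.1e-06), having fallen with OD in Caco-2 more than in HT-29.

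With OD, 13 of the 40 genes (32.5%) had an FDR under 0.05 in both lines, being higher in Caco-2 and lower in HT-29, where 6.67% of the 13943 genes tested in both lines did so, and 12 of the 40 did with library size only. They were BRCA1, BRCA2, BARD1, BRIP1, RAD51D, BLM, EXO1, FANCC, FANCD2, FANCI, UNG, XRCC1 and CHEK1. None was lower in Caco-2 and higher in HT-29, where 4.96% of all genes were. A further 6 (15%, beside 12.1%) fell in both lines and 5 (12.5%, beside 14.7%) rose in both, which became 10 and 1 with library size only. With CoCl2, 15 of 40 (37.5%, beside 22.8%) fell in both lines, 2 rose in both (5%, beside 25.9%), 4 rose in Caco-2 and fell in HT-29 (10%, beside 4.44%) and 0 did the reverse (beside 4.48%). Those 4 were BARD1, EXO1, FANCI and CHEK1, all of which are also among the 13. With library size only the CoCl2 numbers became 25, 0 and 1.

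**Figure D4:**
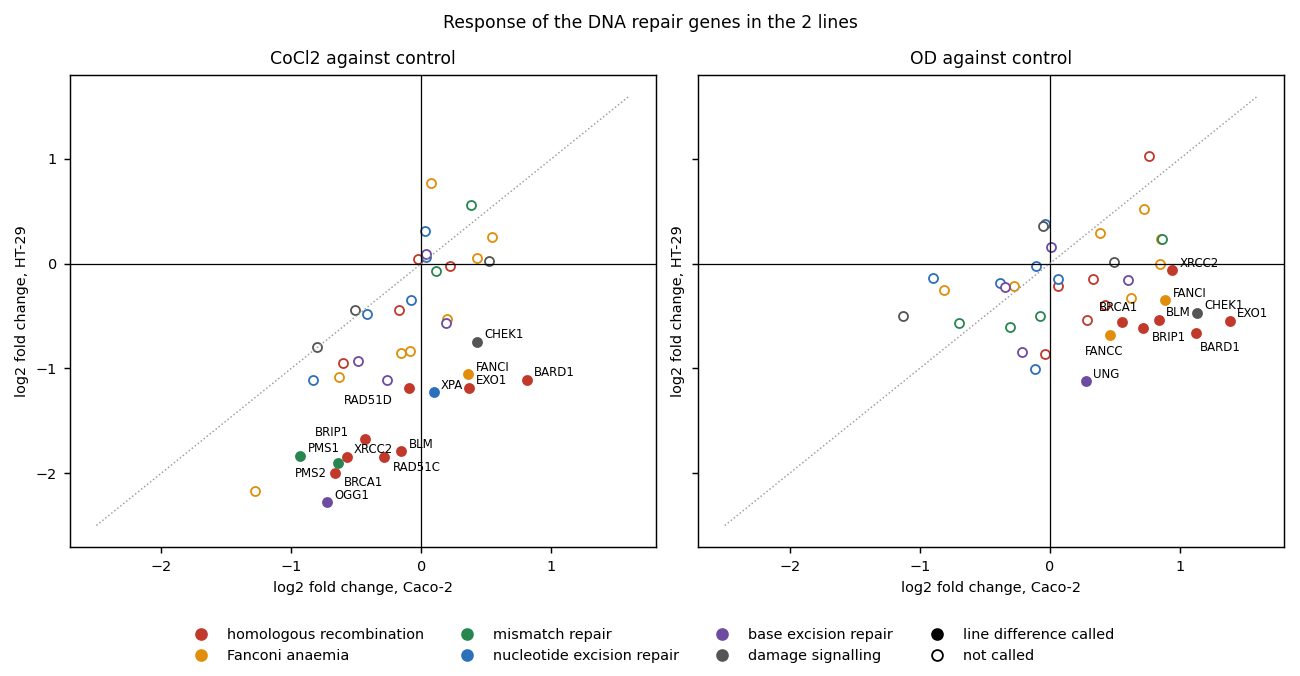
Log2 fold change against control in Caco-2 (x axis) and HT-29 (y axis) for each of the 40 genes, with CoCl2 and OD in separate panels. Filled and named genes are those whose difference between the lines was called, and the dotted line marks equal change. For OD, 13 genes with an FDR under 0.05 in both lines lie to the right of 0 and below it, and none with such an FDR lies to the left of 0 and above it.

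The summed markers of cell division were higher with OD in Caco-2 and lower with both agents in HT-29. The 20 proliferation markers examined summed to between 1733 and 1840 CPM in the Caco-2 controls, 1825 to 1878 with CoCl2 and 2719 to 2836 with OD. In HT-29 the sums were 2898 to 2962, 1633 to 1772 and 2257 to 2380. Their median log2 fold changes were 0.83 for OD and 0.12 for CoCl2 in Caco-2 (-0.20 for the latter with library size only), and -0.20 and -0.55 in HT-29. With OD in Caco-2, 6 of the 20 were called higher and 1 lower (30% and 5%, beside 4.43% and 7.27% of all genes). At an FDR under 0.05 alone 16 were higher and 2 lower (80% and 10%, beside 25.7% and 24.7%). Single markers thus went against the sum: CCNB1 had 1920, 1824 and 1863 raw counts in the Caco-2 controls and 891, 1004 and 804 with OD. With OD in HT-29, 5 were higher and 11 lower by FDR alone (25% and 55%, beside 34.7% and 34%). With CoCl2 in HT-29, 4 were called lower and 0 higher (20% lower, beside 23.9%), so no more than among the genes at large. By FDR alone 14 were lower there and 2 higher (70% and 10%, beside 42.2% and 40.7%). E2F1, a factor that drives S-phase genes, rose with OD in Caco-2 from 42.3 ± 1.48 to 114 ± 4.42 CPM (1.43 ± 0.09, FDR 9.1e-12) and was at 28.5 ± 2.22 against 23.6 ± 0.61 in HT-29 (0.27 ± 0.07, FDR 0.00107). MKI67 went from 235 ± 12.1 to 349 ± 10.0 CPM with OD in Caco-2, and from 703 ± 40.4 to 496 ± 28.7 in HT-29. In the interaction over all 18 libraries, the median line differences of the 20 markers were -0.74 for CoCl2 and -0.96 for OD. All 20 were below 0 for both agents, so these markers had the lower response in HT-29 too. For CoCl2 7 and for OD 9 were called lower and 0 higher (35% and 45%, beside 13.8% and 6.24% of all genes). The part of the markers in the changes of the repair genes was not tested. With CoCl2 in Caco-2 the sum overlapped that of the controls, while single markers went both ways. At an FDR under 0.05, 8 of the 20 were higher and 5 lower there (40% and 25%, beside 31.6% and 33.1% of all genes). In Caco-2 the summed non-epithelial markers were lower with treatment, between 18.82 and 22.25 CPM with CoCl2 and between 22.1 and 27.7 with OD. The controls had 32.8 to 39.7, and the part of these markers was not tested.

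Other genes of the same pathways gave a setting for the 40. Of 16 further recombination genes, 5 were called lower and 0 higher with CoCl2 in HT-29, and all 16 had an FDR under 0.05 and were lower (beside 42.2% of all genes), with a median of -0.74. With OD in Caco-2, 11 of the 16 had an FDR under 0.05, all higher (68.8%, beside 25.7% of all genes), and none was called. GEN1, a nuclease that cuts crossed strands, had the lowest value of that list with CoCl2 in HT-29, at 16.9 CPM against 64.3 in the control (-1.92 ± 0.07, FDR 5.3e-19). Of 8 further Fanconi genes, 4 were called lower and 0 higher with CoCl2 in HT-29. SLX4, a scaffold of repair nucleases, was called lower with CoCl2 in Caco-2 (4.35 against 14 CPM, -1.69 ± 0.18, FDR 1.53e-08). Of 12 further nucleotide excision genes tested, 3 were called higher and 2 lower with CoCl2 in HT-29, with a median of 0.53 that turned to -0.10 with library size only. RAD23B, the partner of XPC, and XAB2, which binds XPA, were among those higher there (1.48 ± 0.05 with FDR 7.61e-21, and 1.78 ± 0.06 with FDR 5.92e-20). Of 13 further base excision genes, 3 were called lower and 1 higher with CoCl2 in HT-29, and NEIL3, a glycosylase of replicating cells, fell by 1.88 ± 0.13 (FDR 1.84e-13). Of 7 end-joining genes tested, LIG4, the ligase of that pathway, was called lower in Caco-2 with both CoCl2 (4.41 against 15.4 CPM, -1.77 ± 0.17, FDR 1.74e-09) and OD (5.77 CPM, -1.42 ± 0.16, FDR 9.44e-08), and none was called in HT-29 with either agent. Of 14 further signalling genes, 2 were called higher and 2 lower with CoCl2 in HT-29. TIPIN, which protects replication forks, fell there by 2.03 ± 0.13 (FDR 9.59e-14), and RAD9A, a subunit of a checkpoint clamp, rose by 1.42 ± 0.09 (FDR 3.5e-14). CLSPN, the adaptor through which ATR reaches CHEK1, rose with OD in Caco-2 from 13.5 to 32.9 CPM (1.28 ± 0.11, FDR 1.4e-09). With CoCl2 in HT-29, 23.9% of all genes were called lower and 17.4% higher.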

How the data were processed

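mRNA of 18 libraries of Caco-2 and HT-29 cells was sequenced. The authors deposited a table of raw counts per gene (whole numbers, not normalized) and, for each line, a table of log2(RPKM + 1) values scaled within that line. The submitters' processing notes name FastQC 0.11.9, cutadapt 2.10, STAR 2.7.5b, Bowtie 1.1.1, edgeR 3.30.3 and the build GRCh38.p13, and the study used GENCODE 34. The counting tool and its use of strand are not given in the sources used here. The study's methods describe Caco-2, so the treatment of HT-29 is known from the labels alone.

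From the counts, CPM on library sizes scaled by TMM within each line, and log2 fold changes, were computed with edgeR 4.0.16 in R 4.3.3 (filterByExpr, quasi-likelihood F test, Benjamini-Hochberg over all genes tested). A gene was called at an FDR under 0.05 and an absolute log2 fold change over 1, the thresholds of the study. Comparisons within a line were fitted over its 9 libraries, and differences between lines over all 18. The deposited log2 values served for levels between genes and, with limma 3.58.1, as an alternative. The same limit of 1 was used there, although the 1 added to RPKM shrinks the changes of genes at low levels. DESeq2 1.42.0, other scalings, no filter on low counts, the replicate number as a block and each library left out in turn were also tried. The procedure was tested on simulated data. Columns without a sample numbered 0. Coordinates are from GENCODE 44 on GRCh38. Library totals limit precision to what 12925719 to 22332639 counts allow.

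The 40 genes and the further lists were chosen with earlier results of these data known. By rule all 40 could be named, values per library went to genes called with a treatment (the largest changes where a class had over 4), and of the further lists at most the 3 highest and 3 lowest called genes per comparison with a mean of at least 100 counts were named. Values per library of other members, such as DDB1, MSH6, FANCG and PARP1, were chosen after their values were seen.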

Additional observations from a re-analysis of the deposited data

Results flagged for a closer look

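The responses below differed between the lines by the interaction test over all 18 libraries (edgeR, FDR under 0.05 and a difference over 1 on the log2 scale), and each is given as the log2 fold change in HT-29 minus that in Caco-2. For CoCl2, 14 genes were picked out in this way, all with the lower response in HT-29. Among the recombination genes these were BARD1 (-2.03), BLM (-1.75), RAD51C (-1.66), EXO1 (-1.65), BRCA1 (-1.44), XRCC2 (-1.38), BRIP1 (-1.36) and RAD51D (-1.20). The others were OGG1 (-1.66), FANCI (-1.52), XPA (-1.43), PMS2 (-1.37), CHEK1 (-1.28) and PMS1 (-1.01), which was not called with DESeq2 (-0.92) or RLE scaling (-0.91).

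For OD, 10 genes were picked out, again all with the lower response in HT-29. They were EXO1 (-1.95), BARD1 (-1.80), CHEK1 (-1.62), UNG (-1.42), BLM (-1.39), BRIP1 (-1.36), FANCI (-1.25), FANCC (-1.16), BRCA1 (-1.13) and XRCC2 (-1.02). Cell line and the differentiated state of the Caco-2 culture cannot be told apart in these differences.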

How the results depend on the processing

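Of 4680 values of single genes over all alternatives, 4474 kept their direction and side of the threshold, 119 no longer passed it, 67 newly passed it and 20 changed sign, and a further 104 values that passed under neither setting changed sign. With libraries scaled by size only, the genes called numbered 5 for CoCl2 in Caco-2, 28 for CoCl2 in HT-29 and 20 for CoCl2 against OD in HT-29. With limma on the deposited log2 values they numbered 2 for OD in Caco-2, 1 for CoCl2 against OD in Caco-2, 1 for OD in HT-29 and 5 for CoCl2 against OD in HT-29, and 13 rather than 17 for CoCl2 in HT-29. Leaving out 1 library gave 1 to 2 calls for CoCl2 in Caco-2 (2 without control replicate 2 or CoCl2 replicate 2) and 1 to 3 for OD in HT-29 (1 without OD replicate 3).

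All 20 sign changes came with library size only, whose own construction moves the median of all genes. For CoCl2 in Caco-2 they were ERCC3 (-0.29), DDB1 (-0.29) and APEX1 (-0.29). For CoCl2 in HT-29 they were XRCC3 (-0.59), FANCB (-0.57), FANCG (-0.37), MSH6 (-0.074), ERCC3 (-0.57), DDB1 (-0.32), APEX1 (-0.54) and CHEK2 (-0.61). For CoCl2 against OD in HT-29 they were XRCC3 (-0.30), FANCG (-0.47), MSH3 (-0.070), MSH6 (-0.17), ERCC3 (-0.25), DDB1 (-0.038), UNG (-0.49), APEX1 (-0.18) and CHEK2 (-0.48).

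Replicate numbers did not pair the samples: deviations of same-numbered libraries correlated between -0.112 and 0.12. With the replicate block, the calls in Caco-2 numbered 1 (CoCl2), 4 (OD) and 6 (CoCl2 against OD), those in HT-29 17, 3 and 10, those of the line differences 15 (CoCl2) and 10 (OD), and those between the controls 13, where OGG1 (-0.96) lost its call and ATR (1.11) and BARD1 (1.05) gained one. FANCF (-1.01) gained one in the CoCl2 difference of the lines.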
